A study of Homo sapiens with 4 samples.

Results

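Human coding genes with a gene record of at least 500 kilobases (kb) were described in THP-1 cells that had received an antisense oligonucleotide against the long noncoding RNA SGOL1-AS1. Members were the autosomal protein-coding genes of GENCODE 29 (build GRCh38) whose record spans at least 500 kb from first to last annotated base, whose mean over the 4 libraries was at least 10 normalized reads, and whose symbol does not start with SLC. Of 304 annotated autosomal coding genes of that span, 221 were in the deposited table, 183 reached the mean and 4 of these were SLC genes, which left 179 members among 27106 genes in the table. They were thus chosen by span and selected on their mean level over all 4 libraries, so their levels are a description.

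THP-1 cells are monocyte-like cells grown from a human acute myeloid leukaemia. Total RNA was sequenced from 2 libraries with the oligonucleotide against SGOL1-AS1 (the knockdown) and from 2 libraries with a non-targeting oligonucleotide, all labelled day 5. Reads assigned to genes came to 48558537 and 41435922 in the knockdown libraries and to 50855150 and 51851314 in the non-targeting libraries. The knockdown columns of the table bear a code that no label gives and were identified by elimination. Separate cultures are not stated in the labels, and a p-value here therefore covers the spread between libraries, perhaps technical. In bulk RNA, fewer cells with a transcript and less of it per cell cannot be told apart.

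A very long gene takes RNA polymerase II many hours to copy, and nearly all of what is copied is intron that splicing removes. Transcription of such genes leans on steady elongation, on topoisomerases that relieve supercoiling and on U1 snRNP, which shields the early RNA from premature cleavage and polyadenylation. Many belong to nerve cells, where they encode adhesion molecules, synaptic scaffolds and ion channels, and several lie in common fragile sites, stretches that break under replication stress. The targeted RNA is itself transcribed from a locus of that size. SGO1-AS1, as SGOL1-AS1 is now called, spans 972 kb (chr3:20174244-21145967, plus strand) between the long coding genes TBC1D5 and ZNF385D.

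Introns made up nearly all of the members' length. The median member spanned 715 kb and held 10.4 kb of exonic sequence, 1.41% of its length, whereas the median of 12599 shorter autosomal coding genes that reached the same mean spanned 33.2 kb, with 5.09 kb exonic or 15.5% of the length. The largest intron had a median of 224 kb in the members and 10.6 kb in the shorter genes, and the longest coding transcript had a median of 18 and 9 exons. Exonic GC content had a median of 45.2% in the members and 49.4% in the shorter genes. The members spanned 502 to 2305 kb, with 142 under 1000 kb and 37 at or above it, and 4 reached 2000 kb. In 159 of them 1 coding transcript alone covered at least 500 kb, and in the other 20 the span came from joining transcripts or from noncoding ones. They lay on 20 autosomes, with 23 on chromosome 3 and 19 each on chromosomes 1 and 7.

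Promoter sequence was available for 149 of the 179 members, as 250 bases before and 50 after the gene start in RefSeq (GRCh38.p14). Motifs of 3 factor families of monocytic cells were searched on both strands: EGR (GCGNGGGCG), AP-1 (TGANTCA) and NF-kB (GGGA and CC with any 4 bases between them). The EGR motif was found in 14.8% of member promoters, in 15.4% of the promoters of shorter coding genes and in 9.28% of all RefSeq promoters. The AP-1 motif was found in 2.68% of members, against 4.42% of shorter genes and 7.76% of all promoters, and the NF-kB motif in 23.5%, against 31% and 25.1%. Of the 13 members that differed between the groups, 6 lower and 4 higher ones had promoter sequence, and 4 of these 10 held a motif, and their promoters are shown with the motif in capitals, a match of letters that says nothing of binding. RYR2 (chr1:237041934-237042233, plus strand) and NBEA (chr13:34942020-34942319, plus strand) held the NF-kB letters, CNTN4 (chr3:2098616-2098915, plus strand) the EGR letters and HDAC9 (chr7:18495499-18495798, plus strand) the AP-1 letters. The HDAC9 start used by RefSeq lies 409 kb inside the gene record.
RYR2: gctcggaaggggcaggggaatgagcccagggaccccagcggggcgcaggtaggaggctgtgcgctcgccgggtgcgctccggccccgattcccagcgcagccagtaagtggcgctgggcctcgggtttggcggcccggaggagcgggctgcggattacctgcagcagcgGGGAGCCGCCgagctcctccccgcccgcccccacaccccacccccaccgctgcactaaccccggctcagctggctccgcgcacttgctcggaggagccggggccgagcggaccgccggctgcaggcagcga
NBEA: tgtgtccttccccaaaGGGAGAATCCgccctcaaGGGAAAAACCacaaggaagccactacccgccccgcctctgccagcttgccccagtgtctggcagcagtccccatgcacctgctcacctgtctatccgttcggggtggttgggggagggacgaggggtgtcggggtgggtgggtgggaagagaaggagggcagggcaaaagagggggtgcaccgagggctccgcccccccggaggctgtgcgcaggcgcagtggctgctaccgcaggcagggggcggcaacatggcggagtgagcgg
CNTN4: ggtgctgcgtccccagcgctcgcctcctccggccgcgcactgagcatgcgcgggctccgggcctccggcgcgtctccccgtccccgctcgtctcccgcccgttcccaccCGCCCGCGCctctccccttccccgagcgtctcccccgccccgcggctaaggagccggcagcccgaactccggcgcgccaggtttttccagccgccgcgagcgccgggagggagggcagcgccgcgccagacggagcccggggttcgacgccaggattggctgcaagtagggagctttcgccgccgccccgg
HDAC9: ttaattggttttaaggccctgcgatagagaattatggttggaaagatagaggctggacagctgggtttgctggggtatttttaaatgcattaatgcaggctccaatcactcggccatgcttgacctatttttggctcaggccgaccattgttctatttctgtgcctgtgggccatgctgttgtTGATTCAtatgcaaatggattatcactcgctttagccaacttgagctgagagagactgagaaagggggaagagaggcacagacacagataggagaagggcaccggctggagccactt

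Long coding genes were expressed in THP-1 cells over a wide range, mostly at low levels. The mean normalized count per member had a median of 333 and ran from 10.1 to 20888, against a median of 1281 in the shorter coding genes. Per exonic kilobase the medians were 35.8 and 249 normalized reads. A mean of 10 was reached by 60.2% of the long genes of the annotation and by 67.3% of the shorter ones. The other 38 long coding genes in the table had means of 0.950 to 9.85 and were not tested. Just inside the length limit lay PPFIA2 at 502 kb and DNAH14 at 503 kb, and just outside it CACNA2D1 at 497 kb and DIAPH3 at 498 kb. Just inside the limit on the mean lay GRM8 at 10.1 and EGLN3 at 10.3, and just outside it KCNAB1 at 9.85 and KCNMA1 at 9.61.

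The member with the highest count was RUNX1, a transcription factor of blood cell formation, with 22344 and 20845 normalized reads in the knockdown libraries and 20812 and 19552 in the non-targeting ones. The lower knockdown value and the higher non-targeting value nearly met, and the log2 difference of 0.10 ± 0.05 (SE) did not pass the test (adjusted p = 0.344 by limma). GSE1, a coiled-coil protein of chromatin complexes, had 12221 and 11147 in the knockdown and 13005 and 12455 in the non-targeting libraries, with the knockdown values below the others and a log2 difference of -0.12 ± 0.05 (adjusted p = 0.214 by limma). Without knockdown library 1 the GSE1 difference was -0.19 (adjusted p = 0.0195 by limma), and without knockdown library 2 it was -0.06 (adjusted p = 0.665 by limma). The splicing regulator CELF2 (-0.03), the dystrophin relative UTRN (0.02) and the Rab GTPase-activating protein TBC1D5 (0.08) had means of 11566, 10116 and 9959 and did not pass the test.

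Between the groups, 8 long coding genes were lower and 5 higher in the knockdown at an adjusted p of 0.05 (limma on log2(value + 1), adjusted over 19398 genes). The 8 lower genes were NEGR1, PARD3, NCAM2, CNTN4, CALN1, KALRN, WWOX and HDAC9, and the 5 higher were RYR2, ANKS1B, PLCB1, NBEA and MGAT4C. The lower genes were 4.47% of the members, against 3.4% of all tested genes and 4.85% of the shorter coding genes. The higher genes were 2.79% of the members, against 0.851% of all tested genes and 0.643% of the shorter coding genes. With either direction counted, 7.26% of the members passed, against 4.25% of all tested genes and 5.49% of the shorter coding genes. Both knockdown values lay below both non-targeting values in 42 members (23.5%) and above them in 54 (30.2%), against 25.1% and 21.6% of all tested genes and 31.2% and 17.7% of the shorter coding genes. In all, the groups did not overlap in 53.6% of the members, in 46.7% of all tested genes and in 48.9% of the shorter coding genes. The members' split of 5 higher and 8 lower became 8 higher and 6 lower with scaling to the same total, and that of all tested genes, 165 higher and 660 lower, became 235 and 293. The lower share was thus near the background. The higher share was above it on 5 genes, and in coding genes of 200 to 500 kb it was 1.72%. Whether that excess is particular to long genes was not tested.

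**Figure D1:**
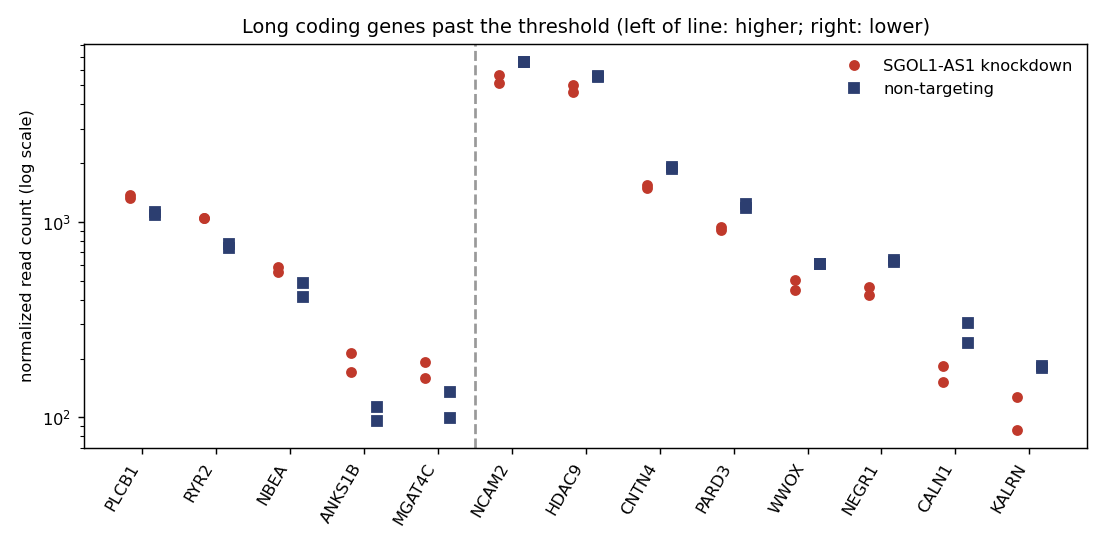
Normalized read counts (log scale) of the 13 long coding genes past the threshold, with the 2 knockdown libraries as circles and the 2 non-targeting libraries as squares. The 5 genes left of the dashed line were higher in the knockdown and the 8 right of it lower, and in none of the 13 did the groups overlap.

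Adhesion and cell-surface genes, 35 of the 179 members, gave 4 of the 8 lower ones. NEGR1 (chr1:71395940-72282734, minus strand), a GPI-anchored neuronal growth regulator of the immunoglobulin superfamily, had 423 and 464 normalized reads in the knockdown libraries and 623 and 638 in the non-targeting ones. The groups stood well apart, a log2 fold change of -0.51 ± 0.09 (adjusted p = 0.00140 by limma). NCAM2 (chr21:20998315-21543329, plus strand), a neural cell adhesion molecule, was the most abundant of the 13, with 5147 and 5643 in the knockdown and 6557 and 6551 in the non-targeting libraries. Its non-targeting values were nearly equal and its knockdown values both lower (-0.28 ± 0.05, adjusted p = 0.00299 by limma). CNTN4 (chr3:2098813-3057956, plus strand), a contactin of axon guidance whose promoter holds the EGR letters, had 1491 and 1542 against 1876 and 1921 (-0.32 ± 0.06, adjusted p = 0.00331 by limma). PARD3 (chr10:34109560-34815325, minus strand), a scaffold of cell polarity and tight junctions, had 940 and 911 against 1233 and 1180 (-0.38 ± 0.07, adjusted p = 0.00234 by limma). In both genes the values within a group were close and the knockdown pair lay below.

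The other adhesion genes moved less or were too low to tell. Of the 35 members on the adhesion and cell-surface list, 4 were lower, 0 higher and 31 did not pass. The lower genes were 11.4% of the list, against 4.47% of the members and 3.4% of all tested genes. That share rests on 4 genes and was not tested. The list's median log2 fold change was -0.04. The median was 0.02 in the 179 members together and -0.01 in all tested genes. With scaling to the same total the list's median was 0.015, and 4 of the 35 were lower. GPC6, a glypican, had 81.5 and 81.0 in the knockdown and 129 and 116 in the non-targeting libraries, with no overlap, at -0.58 ± 0.17 and an adjusted p of 0.0564 by limma, and it passed with scaling to the same median (0.0450) and with robust empirical Bayes (0.0394). ERBB4, a receptor tyrosine kinase that binds neuregulins and was named after its values were seen, lay on the other side, with 47.0 and 52.5 in the knockdown and 25.9 and 27.3 in the non-targeting libraries, at 0.88 ± 0.26 (adjusted p = 0.0617 by limma). The neurexin relative CNTNAP2, the longest member at 2305 kb, had 71.0 and 42.2 in the knockdown and 61.5 and 50.8 in the non-targeting libraries, which overlapped.

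The list of kinases, phosphatases and second-messenger enzymes held 2 of the 5 higher members, RYR2 and PLCB1. RYR2 (chr1:237042205-237833988, plus strand), a channel that releases calcium from the endoplasmic reticulum and is best known from heart muscle, had 1054 and 1045 normalized reads in the knockdown libraries and 737 and 772 in the non-targeting ones. The knockdown values were nearly equal and about 1.39 times the others, a log2 fold change of 0.48 ± 0.08 (adjusted p = 0.000418 by limma), the smallest p of any member. PLCB1 (chr20:8077251-8968360, plus strand), a phospholipase C that acts below G protein-coupled receptors, had 1380 and 1324 against 1080 and 1126 (0.29 ± 0.07, adjusted p = 0.0151 by limma). Its groups did not overlap, and without non-targeting library 1 the difference was 0.26 with an adjusted p of 0.185, in a fit that called 334 lower and 87 higher genes in the whole table, against 660 and 165 with all libraries. That list had 17 members, of which 2 were higher and 0 lower, with a median of 0.11 and 12 of 17 positive. The higher genes were 11.8% of it, against 2.79% of the members and 0.851% of all tested genes. That share rests on 2 genes and was not tested. RYR2 is a channel and no enzyme. PTPRG, a receptor tyrosine phosphatase, had 3557 and 3392 in the knockdown and 3059 and 3136 in the non-targeting libraries (0.17 ± 0.06, adjusted p = 0.108 by limma). The difference was 0.20 without knockdown library 2 (adjusted p = 0.0474 by limma) and 0.13 without knockdown library 1 (adjusted p = 0.299 by limma).

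The remaining higher members have roles at synapses, in vesicle traffic and in glycan synthesis. ANKS1B (chr12:98726457-99984654, minus strand), a postsynaptic scaffold that binds the amyloid precursor protein, had 213 and 171 normalized reads in the knockdown libraries and 113 and 96.0 in the non-targeting ones. Its log2 fold change of 0.87 ± 0.16 was the highest among the 13 (adjusted p = 0.00177 by limma). MGAT4C (chr12:85955666-86838904, minus strand), a member of a family of N-acetylglucosaminyltransferases that branch N-glycans, had 193 and 160 against 134 and 99.7 (0.60 ± 0.16, adjusted p = 0.0396 by limma). Its lower knockdown value was closer to the higher non-targeting value than the 2 non-targeting values were to each other. NBEA (chr13:34942287-35673022, plus strand), a BEACH-domain protein of membrane traffic whose promoter holds the NF-kB letters at 2 places, had 591 and 557 against 412 and 485 (0.36 ± 0.10, adjusted p = 0.0356 by limma). The MGAT4C difference was 0.46 without knockdown library 1 (adjusted p = 0.152 by limma) and 0.38 without non-targeting library 2 (adjusted p = 0.372 by limma), and the NBEA difference was 0.31 without knockdown library 1 (adjusted p = 0.0762 by limma) and 0.24 without non-targeting library 1 (adjusted p = 0.486 by limma). With all 4 libraries the MGAT4C call was also lost under scaling to the same total, quantile normalization, a minimum mean of 50, the GC and exonic length correction, edgeR and DESeq2, and the NBEA call under quantile normalization and DESeq2.

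The lower members outside adhesion included CALN1, KALRN, WWOX and HDAC9. KALRN (chr3:124080023-124726325, plus strand), a guanine nucleotide exchange factor that shapes dendritic spines, had 86.3 and 128 normalized reads in the knockdown libraries and 183 and 179 in the non-targeting ones. The knockdown values differed from each other more than the non-targeting ones did, and the log2 fold change was -0.78 ± 0.17 (adjusted p = 0.00798 by limma). Without knockdown library 1 the KALRN difference was -0.50 (adjusted p = 0.0617 by limma). CALN1 (chr7:71779491-72447151, minus strand), a calcium-binding protein related to calmodulin, had 152 and 184 against 241 and 303 (-0.69 ± 0.14, adjusted p = 0.00437 by limma). Both pairs were spread and did not overlap, and without non-targeting library 2 the difference was -0.53 (adjusted p = 0.0928 by limma). WWOX (chr16:78099413-79212667, plus strand), a WW-domain oxidoreductase at a common fragile site, had 504 and 450 against 613 and 608 (-0.36 ± 0.09, adjusted p = 0.0247 by limma). HDAC9 (chr7:18086949-19002416, plus strand), a class IIa histone deacetylase, had 4634 and 5008 against 5518 and 5565 (-0.20 ± 0.05, adjusted p = 0.0336 by limma). In both genes the non-targeting values were nearly equal and the knockdown values lower and further apart. With all 4 libraries the WWOX call was lost under scaling to the same total (adjusted p = 0.0935 by limma) and quantile normalization (0.0644 by limma). The HDAC9 call was lost under those 2 settings (0.139 and 0.127 by limma) and scaling to the same median (0.0581 by limma). DESeq2 lost both (adjusted p = 0.136 and 0.0786 by DESeq2). Both calls were lost without either non-targeting library, with differences about as large as before: WWOX was at -0.35 and -0.36 (adjusted p = 0.155 and 0.107 by limma) and HDAC9 at -0.21 and -0.20 (adjusted p = 0.206 and 0.20 by limma) without non-targeting libraries 1 and 2. Calls over the whole table fell in these fits too, to 334 lower and 87 higher genes without non-targeting library 1 and 454 and 90 without non-targeting library 2. WWOX was at -0.27 without knockdown library 2 (adjusted p = 0.110 by limma), and HDAC9 at -0.15 without knockdown library 1 (adjusted p = 0.167 by limma).

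**Figure D2:**
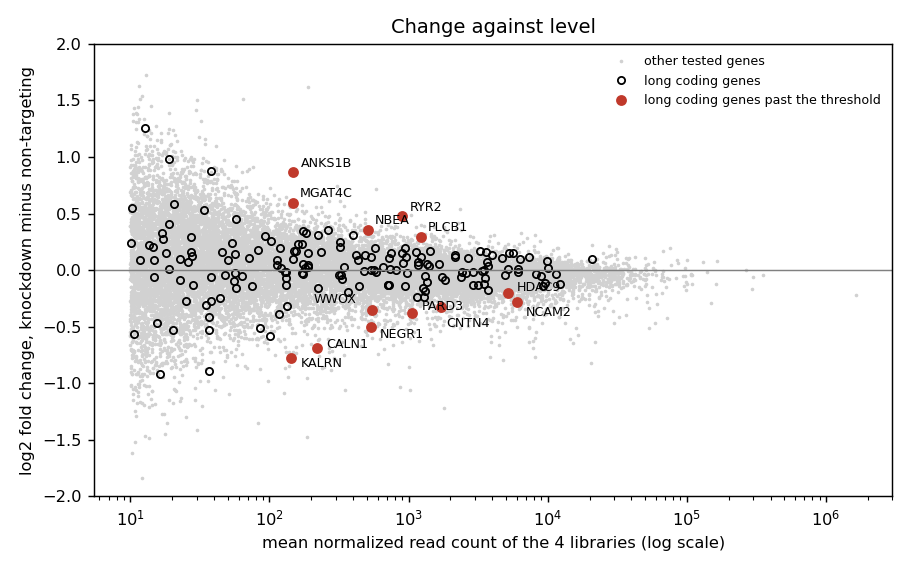
Log2 fold change (knockdown minus non-targeting) against the mean normalized read count of the 4 libraries (log scale), with members as open circles, the 13 members past the threshold filled and named, and all other tested genes as grey points. The members under a mean of 50 spread from -0.92 to 1.25 and none of them passed, while those of at least 1000 kept between -0.38 and 0.29.

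The reach of the test depended on the level. Of the 58 members with a mean of at least 1000, 4 were lower and 1 higher, and their log2 fold changes had a median of -0.01 and a median SE of 0.06. Of the 38 with a mean under 50, 0 passed with limma, edgeR or DESeq2, and 5 had an unadjusted p under 0.05 with limma. With scaling to the same median 1 of the 38 passed, as higher. Their median SE was 0.34, so that differences of the size seen in RYR2 or NEGR1 were hardly detectable in them. At an unadjusted p under 0.05, 48 of the 179 members passed (26.8%), against 17.2% of all tested genes. Changes were small in most members: 123 of 179 (68.7%) lay within 0.2 on the log2 scale, and so did 68.4% of all tested genes. A fold of at least 1.5 was seen in 9 members. Of these, 4 passed, which were KALRN, CALN1, ANKS1B and MGAT4C, and 5 did not, which were ERBB4, SYN3, ATP8A2, CEP112 and GALNTL6. Of these, ERBB4, SYN3, ATP8A2 and CEP112 were named after their values were seen. SYN3 (-0.89) holds on its other strand the gene TIMP3, with a mean of 8109 normalized reads and a log2 fold change of -0.77 (adjusted p = 5.85e-08 by limma). The 2 share no exonic base, and whether reads from TIMP3 enter the SYN3 count was not tested. GALNTL6, a relative of the enzymes that start mucin-type glycans, had the lowest fold change, with 10.6 and 10.3 in the knockdown and 31.7 and 13.2 in the non-targeting libraries (-0.92 ± 0.43, adjusted p = 0.270 by limma). Its difference rested mostly on non-targeting library 1.

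Of the transcription and RNA regulators, 1 of 21 passed the threshold (4.76%, against 4.25% of all tested genes). That gene was HDAC9, which was lower, while 16 of the 21 had a positive log2 fold change. The median of 0.10 was 0.09 to 0.15 under the 3 other scalings, 0.06 after the GC and exonic length correction, 0.04 without knockdown library 1 and 0.05 without non-targeting library 2. Relative to the non-targeting mean, it was 0.13 in knockdown library 1 and 0.04 in knockdown library 2. The list holds TBC1D5 and the adhesion-plaque protein LPP, which are better known for other roles. FOXP1, a forkhead factor of monocyte and lymphocyte differentiation, had 4246 and 4044 normalized reads in the knockdown and 3764 and 3795 in the non-targeting libraries, without overlap (0.13 ± 0.05, adjusted p = 0.20 by limma). AUTS2, a partner of Polycomb proteins at a fragile site, had 374 and 227 in the knockdown and 230 and 225 in the non-targeting libraries. Knockdown library 1 alone stood apart in AUTS2: without knockdown library 2 the log2 fold change was 0.71 with an adjusted p of 2.77e-05 by limma, and without knockdown library 1 it was -0.004.

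GTPase regulators and cytoskeletal genes gave 1 gene past the threshold, 5% of the list against 4.25% of all tested genes. Of 20 members, 1 was lower (KALRN) and 0 higher, and the median was 0.01, a sign that turned with the correction for GC content and exonic length (-0.05). ARHGAP24, a Rac-directed GTPase-activating protein, had 443 and 444 in the knockdown and 343 and 371 in the non-targeting libraries (0.31 ± 0.10, adjusted p = 0.0782 by limma). NAV3, which binds microtubule tips, had 5945 and 5919 in the knockdown and 5360 and 5351 in the non-targeting libraries (0.15 ± 0.05, adjusted p = 0.116 by limma). In both genes the values within a group were close together and the groups did not overlap, yet the differences did not pass. ARHGAP24 passed with scaling to the same median (0.0454), and NAV3 with scaling to the same total (0.0307) and quantile normalization (0.0416).

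Membrane traffic, ubiquitin and autophagy genes numbered 19, with 1 lower (WWOX, which is better known as an oxidoreductase and tumour suppressor) and 1 higher (NBEA). Each of these was 5.26% of the list, against 3.4% lower and 0.851% higher in all tested genes. The list's median was -0.004, and 0.05 with scaling to the same total. LRMDA, a leucine-rich protein of melanocyte differentiation, had 1155 and 952 in the knockdown and 1287 and 1190 in the non-targeting libraries (-0.24 ± 0.08, adjusted p = 0.115 by limma). The groups of LRMDA did not overlap, and the difference was -0.38 without knockdown library 1 (adjusted p = 0.000659 by limma) and -0.10 without knockdown library 2 (adjusted p = 0.597 by limma). Genes of metabolism, mitochondria and genome maintenance gave 0 of 15 past the threshold, against 4.25% of all tested genes, with a median of 0.03. Of these 15, 3 had an unadjusted p under 0.05, and edgeR and DESeq2 likewise gave 0 past the threshold. The median was -0.003 without knockdown library 2 and -0.004 without non-targeting library 1, each with 7 of 15 positive and 0 at an unadjusted p under 0.05. DPYD, the first enzyme of pyrimidine breakdown, had 7451 and 7741 in the knockdown and 6961 and 7077 in the non-targeting libraries (0.11 ± 0.05, adjusted p = 0.244 by limma).

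Genes at common fragile sites did not move one way. Of 28 members on that list, 2 were lower (NEGR1 and WWOX) and 1 was higher (NBEA) and 25 did not pass. The lower and higher genes were 7.14% and 3.57% of the list, against 3.4% and 0.851% of all tested genes. The median was -0.01, with 14 of 28 positive, and it was 0.05, 0.01 and 0.02 under scaling to the same total, scaling to the same median and quantile normalization. FHIT, a diadenosine triphosphate hydrolase at the most studied of these sites and named after its values were seen, had 30.7 and 38.8 normalized reads in the knockdown and 42.3 and 41.4 in the non-targeting libraries (-0.27 ± 0.26, adjusted p = 0.660 by limma). MACROD2, an ADP-ribose hydrolase of 2058 kb, had 66.2 and 67.3 in the knockdown and 47.1 and 49.9 in the non-targeting libraries, without overlap (0.45 ± 0.22, adjusted p = 0.284 by limma). The 53 members on no list gave 1 lower (CALN1, 1.89%) and 2 higher (ANKS1B and MGAT4C, 3.77%). Their median was 0.06, and it was 0.008 without non-targeting library 1 (27 of 53 positive) and 0.10 without non-targeting library 2. The matrix-associated protein THSD4 among them had 71.9 and 68.4 in the knockdown and 95.1 and 106 in the non-targeting libraries (-0.51 ± 0.18, adjusted p = 0.130 by limma).

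The very longest members gave no call. DLG2, a synaptic membrane-associated guanylate kinase scaffold of 2173 kb, had 112 and 93.5 in the knockdown and 94.1 and 73.4 in the non-targeting libraries, which overlapped. CSMD1, a complement-control protein of 2060 kb, had 161 and 177 against 155 and 191, with the knockdown values between the others. EYS, a photoreceptor matrix protein of 1987 kb, had 29.7 and 20.5 against 16.3 and 16.0, without overlap (0.58 ± 0.35, adjusted p = 0.414 by limma). Among the 37 members of at least 1000 kb, 1 was lower (WWOX) and 1 higher (ANKS1B), each 2.70%.

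Over all autosomal coding genes, the median difference between knockdown and non-targeting libraries was lowest in genes under 10 kb and near 0 or slightly above it in genes of 200 kb and more. The median log2 fold change was -0.07 in 2338 genes under 10 kb, -0.04 in 5558 genes of 10 to 50 kb, -0.01 in 2307 of 50 to 100 kb and -0.002 in 1583 of 100 to 200 kb. It was 0.02 in 813 genes of 200 to 500 kb, 0.02 in 146 of 500 to 1000 kb and 0.01 in 37 of at least 1000 kb, the 4 SLC genes included. Positive values made up 31.2% of the shortest class, 57.5% of the class of 500 to 1000 kb and 51.4% of the longest. The genes past the threshold in the lower direction were 6.76% of the shortest class, 4.79% of the class of 500 to 1000 kb and 2.70% of the longest. Those in the higher direction were 0.342%, 2.74% and 2.70%. In the classes between, from 10 to 500 kb, the lower share was 4.93%, 4.42%, 3.28% and 3.08%. The higher share in those classes rose with span, at 0.36%, 0.737%, 1.39% and 1.72%. Among the 179 members the median was 0.02 with quartiles of -0.11 and 0.15, and 101 (56.4%) were positive, against a median of -0.03 and 40.0% positive in the shorter coding genes. The order among the long classes depended on settings and libraries. For the classes of 200 to 500 kb and 500 to 1000 kb the medians were 0.07 and 0.08 with scaling to the same total, 0.04 and 0.03 with quantile normalization, and 0.008 and 0.003 without non-targeting library 1. The longest class was at 0.08 without non-targeting library 1 and at -0.04 without non-targeting library 2. These shifts were small: relative to the non-targeting mean, the members' median was 0.03 in each knockdown library, and that of the shorter genes -0.03 and -0.02. In the longest class the knockdown libraries differed in sign, at 0.08 and -0.01.

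**Figure D3:**
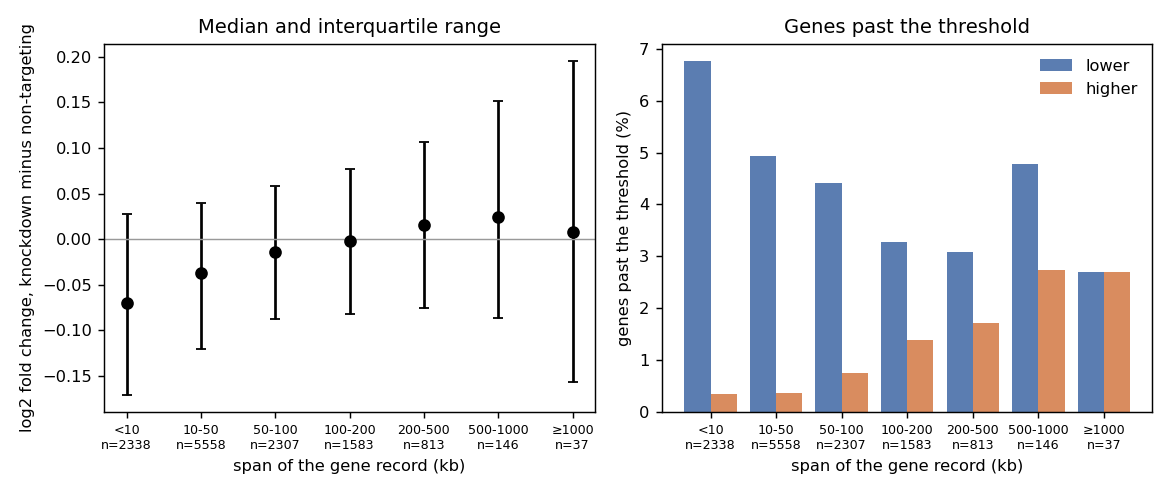
Left, median log2 fold change (knockdown minus non-targeting) of autosomal coding genes in 7 classes of span (kb), with bars from the lower to the upper quartile. Right, percent of each class lower or higher in the knockdown past the threshold. In these values the median was lowest in the shortest class, at -0.07, and highest in the class of 500 to 1000 kb, at 0.02, and the quartiles of every class lay on both sides of 0.

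Base composition moved with span. The median exonic GC content was 57.0% in the shortest class, 50.5% at 10 to 50 kb and 45.0% to 45.8% in every class from 50 kb on. Among genes with a GC content within the members' quartiles, 42.1% to 48.5%, the medians from the shortest class to 500 to 1000 kb were -0.02, -0.01, -0.0004, 0.01, 0.02 and 0.06. With each library corrected for GC content and exonic length, an alternative chosen after the data were seen, the members' median was -0.00086 and its distance from the shorter genes 0.010, compared with 0.053 without the correction. The classes from the shortest up had corrected medians of -0.02, -0.01, -0.01, -0.01, 0.003, 0.002 and -0.04, and their order was largely absent. Median exonic length itself rose with span, from 2.72 kb in the shortest class to 11.1 kb in the longest. The correction therefore takes out part of any order by span by its design. The longest class had too few genes for the matched GC range. How much of the difference goes with composition, with exonic length and with span was not tested further.

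In the median, the machinery that long genes lean on was nearly level, within 0.04 of 0 under every scaling tried. Of 34 tested genes of elongation and topoisomerases, 1 was lower (2.94%, against 3.4% of all tested genes) and 0 higher, with a median of -0.02. That gene was HEXIM1, an inhibitor of the elongation kinase P-TEFb, with 2784 and 2895 in the knockdown and 3259 and 3295 in the non-targeting libraries (-0.21 ± 0.06, adjusted p = 0.0369 by limma). The largest difference among the elongation genes was in SUPT4H1, a low gene, with 30.7 and 20.5 in the knockdown and 20.2 and 4.70 in the non-targeting libraries. At 1.25 ± 0.48 it did not pass (adjusted p = 0.158 by limma). Of 23 genes of U1 snRNP and 3′ end processing, 1 was lower (4.35%) and 0 higher, with a median of -0.02. The gene was CSTF2T, a cleavage stimulation factor, with 1637 and 1785 in the knockdown and 2006 and 2090 in the non-targeting libraries (-0.26 ± 0.06, adjusted p = 0.0210 by limma). HEXIM1, SUPT4H1 and CSTF2T were named after their values were seen. With scaling to the same total 0 of either list passed, with 9 and 4 genes at an unadjusted p under 0.05, and both medians were positive (0.04 and 0.03).

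The 2 long coding genes beside the target did not pass the test. TBC1D5 had 10228 and 10251 normalized reads in the knockdown and 9789 and 9567 in the non-targeting libraries, without overlap (0.08 ± 0.05, adjusted p = 0.419 by limma). ZNF385D, a zinc finger protein, had 26.9 and 30.8 against 27.8 and 23.5 and overlapped (0.16 ± 0.30). SGO1-AS1 had 12 and 17 reads before scaling in the knockdown and 24 and 21 in the non-targeting libraries, both lower. In normalized reads knockdown library 2, at 19.4, was nearly level with non-targeting library 2, at 19.8. Knockdown library 1 was at 11.5, and the difference rested mostly on it. At this depth the SGO1-AS1 fold change of -0.48 ± 0.37 did not pass (adjusted p = 0.555 by limma). Every difference described here is therefore between libraries labelled knockdown and non-targeting, with the knockdown itself not past the threshold.

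Many members are known from neurons, and markers of other cell types were counted beside them. Of 6 neuronal markers 3 were in the table, and they summed to 88.2 and 90.1 normalized reads in the knockdown and 91.2 and 90.3 in the non-targeting libraries. Of 16 monocytic markers 15 were in the table and 4 were lower, with sums of 125269 and 120897 against 132336 and 125091. Of 11 lymphocyte markers 7 were in the table and 1 was lower, with sums of 2969 and 3635 against 4841 and 4785. Of 10 erythroid and megakaryocytic markers 2 were in the table, with sums of 47.0 and 57.0 against 32.7 and 42.3. Of 10 markers of epithelium and fibroblasts 4 were in the table, with sums of 396 and 424 against 441 and 389. Of the defining markers, CD3D, CD3E and MS4A1, the haemoglobins HBA1, HBA2 and HBB, EPCAM, and RBFOX3 have no row in the table used here. The lymphocyte sums were lower in both knockdown libraries, whereas the monocytic sums of the groups overlapped. A sum follows its most abundant genes. The median log2 fold change was -0.14 over the 15 monocytic markers and -0.03 over the 5 lymphocyte markers tested, against -0.01 in all tested genes. The lower genes were 4 of these 15 and 1 of these 5, against 3.4% of all tested genes. The part of these sums in the results was not tested.

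**Figure D4:**
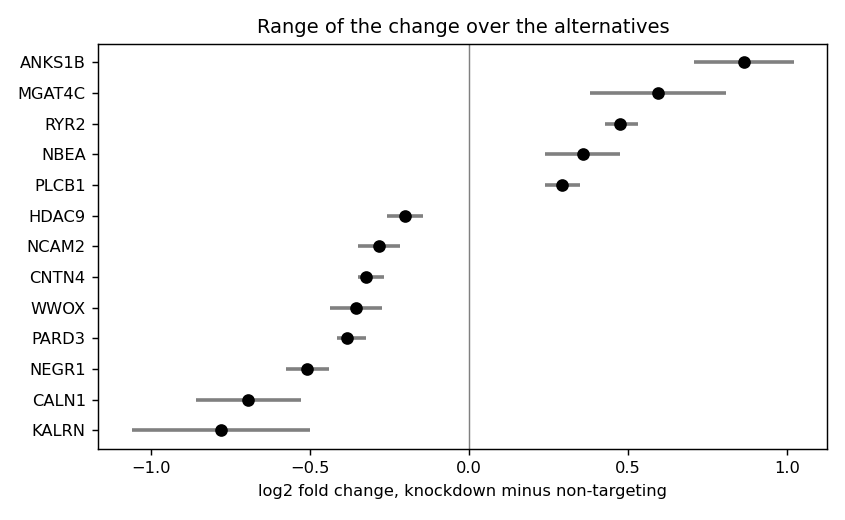
Log2 fold change (knockdown minus non-targeting) of the 13 long coding genes past the threshold, with the reported value as a point and the lowest and highest value over 16 alternatives of processing, left-out libraries included, as a bar. Other filters, pseudocounts and forms of limma or a left-out library could not make a bar cross 0, since the groups did not overlap. No bar crosses 0, and the other settings moved fold changes too little to make a crossing likely.

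The 13 calls differed in how they held. Of 16 alternatives of scaling, filter, test and left-out library, several could not change a sign. Other filters and forms of limma keep the fold change. Other pseudocounts or a left-out library keep its sign where groups do not overlap, as in these genes. The remaining alternatives, with another scaling, correction or test, changed no sign among the 13. They moved fold changes little against the size of these differences, so the unchanged signs say little. HDAC9, the smallest of the 13 at -0.20, was at -0.14 with scaling to the same total. In 6 of the 13 (RYR2, ANKS1B, NEGR1, PARD3, NCAM2 and CNTN4) the call was lost in 1 alternative only, limma without the mean-variance trend. That form of limma called 0 genes in the whole table and gave 28 members an unadjusted p under 0.05. The call was lost in 2 alternatives for PLCB1 and CALN1, in 3 for KALRN, 5 for NBEA, 7 for WWOX, 8 for HDAC9 and 9 for MGAT4C. DESeq2 on the recovered reads lost KALRN, NBEA, WWOX, HDAC9 and MGAT4C, with adjusted p from 0.0566 to 0.190, and edgeR lost MGAT4C (0.0541). Exons shared with other genes can blur a count, since the strand setting of the counting is not given in the sources used here. No exonic base was shared in 101 members, 7 of the 13 among them, in 4 members more than 20% was, and in the 13 the share reached at most 10.4%, in KALRN.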

How the data were processed

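Total RNA of THP-1 cells was sequenced, 2 libraries in each of 2 groups. STAR 2.5.1b, DESeq2 (no version given) and GRCh38 are named, with no role, per the submitters' processing notes. The deposited signal is a gene's read count scaled by the authors with a library-wide size factor. Dividing it back gave whole reads to within 0.000463. Each gene in the table has at least 2 reads in knockdown library 1, and genes without them there are not analysed here. Column names match samples in the non-targeting group, and the other 2, whose code the labels do not explain, were by elimination given to the knockdown and numbered in column order. GENCODE 29 positions matched 26077 of 27106 genes.

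The 19398 genes whose mean reached 10 were tested on log2(value + 1) in limma 3.58.1 (R 4.3.3, eBayes with trend), p-values were adjusted by Benjamini-Hochberg with a threshold of 0.05, and the test was checked on simulated data. Such fold changes understate the change of low genes. The biological coefficient of variation by edgeR 4.0.16 was 4.47%. Genes named were the members past the threshold, the 5 longest, the 5 with the highest mean, the 5 highest and 5 lowest fold changes at a mean of at least 50, up to 3 per list by p, the target and its neighbours. Further names are marked as chosen with their values known. Members and lists were chosen with earlier results of these data known. Alternatives were other filters, pseudocounts, scalings, length limits, robust or untrended limma, left-out libraries, edgeR, DESeq2 1.42.0 and, chosen after seeing the data, a GC and exonic length correction and 2 restrictions of the members. Where 1 library was left out, its partner was taken to vary as the other group does.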

Additional observations from a re-analysis of the deposited data

How the results depend on the processing

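None of the 13 long coding genes past the threshold changed sign under another scaling, the GC and exonic length correction, edgeR or DESeq2. These settings moved fold changes little against the size of the 13 differences, so the unchanged signs say little. The other alternatives among the 16 could not change a sign, as the groups did not overlap in any of the 13. The count of higher genes, 5 of 179 members, was 8 with scaling to the same total and 3 with DESeq2. It was 2 of the 101 members that share no exon. With length limits of 300 and 1000 kb it was 12 of 491 genes and 1 of 37. The count of lower genes, 8 of 179, was 5 with DESeq2, 5 of the 101, 13 of the 491 and 1 of the 37. Over the whole table DESeq2 called 66 higher and 379 lower genes, against 165 and 660 by limma. Limma without the trend gave 0 and 0, with 28 members at an unadjusted p under 0.05. With 1 library left out the counts ran from 3 to 7 higher and from 5 to 10 lower. The lowest came without non-targeting library 1 for the higher genes and without non-targeting library 2 for the lower ones.

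The members' median log2 fold change of 0.024 was 0.018 at a minimum mean of 50, 0.081, 0.041 and 0.030 with scaling to the same total, scaling to the same median and quantile normalization, 0.033 with edgeR, 0.031 with DESeq2, 0.0079 from 1000 kb on, 0.019 with 1 coding transcript of 500 kb, 0.018 with no shared exon, and -0.00086 after the GC and exonic length correction. With 1 library left out it ran from 0.011 to 0.030. Its distance from the shorter coding genes, 0.053, was 0.028 with quantile normalization, 0.010 after the correction and 0.036 from 1000 kb on, and ran from 0.041 to 0.063 with 1 library left out. The causes were not tested. No paired analysis was possible because the knockdown columns and the non-targeting ones share only 1 replicate number. With 2 libraries a group, an exact permutation test of a single value cannot go below 0.333, two-sided.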

Other observations

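Noncoding genes inside the long coding genes, many of them pseudogenes, were mostly higher in the knockdown libraries, while their hosts were level. Of the genes tested, 95 noncoding ones lay wholly inside a member, and 71 of them (74.7%) had a positive log2 fold change, with a median of 0.26. The median was 0.30 in knockdown library 1 and 0.19 in knockdown library 2, relative to the non-targeting mean, and -0.01 in their hosts. On the strand of the host the median was 0.32 over 63 genes, and on the other strand 0.15 over 32. That order did not hold up, with 0.21 and 0.26 without non-targeting library 1, and 0.20 and 0.18 without knockdown library 1. Noncoding genes inside coding genes of 100 to 500 kb had a median of 0.21 (822 genes, 73.1% positive). All other autosomal noncoding genes had one of 0.09 (4553 genes, 61.9% positive). Under the other scalings, edgeR, the GC and exonic length correction and left-out libraries the median inside the members ran from 0.19 to 0.32. Of the 95, 2 were higher past the threshold and 0 lower, against 0.851% and 3.4% of all tested genes, and with either non-targeting library left out 0 passed. These genes were low, with a median mean of 22.8 normalized reads, and the table lists only genes with reads in knockdown library 1. The part of that filter in the difference was not tested. Many of the 95 are annotated as processed pseudogenes. Whether reads of the genes they were copied from enter their counts was not tested.

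The 2 past the threshold lie on chromosome 3. ZNF385D-AS1, an antisense transcript inside ZNF385D (chr3:21542816-21579959), had 389 and 362 normalized reads in the knockdown libraries and 271 and 273 in the non-targeting ones (0.46 on the log2 scale, adjusted p = 0.0125 by limma). FOXP1-IT1, an intronic transcript on the strand of FOXP1 (chr3:71570255-71574457), had 597 and 545 in the knockdown libraries and 441 and 463 in the non-targeting ones (0.34, adjusted p = 0.0375 by limma). In both the groups did not overlap. Reads of unspliced host RNA and reads of a gene inside it cannot be told apart in these counts. The pattern was noticed in the same libraries that gave its values, and no test of it was made.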
